A study of Mus musculus with 8 samples.

Results

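The genes described here are 10 mouse genes whose products carry out immune suppression by regulatory T cells (Tregs) or regulate it at the cell surface. Il10, Ebi3, Tgfb1 and Fgl2 encode secreted or soluble factors. Entpd1 and Nt5e encode enzymes of the cell surface, and Lag3, Tigit, Havcr2 and Icos encode surface receptors. They were taken by name, 10 of the 45232 gene names in the deposited table. All 10 reached at least 1 TPM (a share of the transcripts of a library, corrected for transcript length) in at least 2 libraries, the minimum for testing, which 13376 genes met.

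Each library came from at least 500 CD4+ CD25+ T cells sorted from C57BL/6 mice, a gate rich in Tregs. The 4 groups of 2 libraries were visceral adipose tissue of Id2 CKO mice (KO adipose), visceral adipose tissue of WT mice (WT adipose), spleen of Id2 CKO mice (KO spleen) and spleen of WT mice (WT spleen). The libraries of each group carried the numbers 2 and 3, which the table calls experiments, and values below are given in that order within a group. The sources used here do not give the driver of the conditional knockout, the deleted part of Id2 or the age of the mice, and do not say whether the 2 libraries of each group stem from different mice.

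As background, Tregs restrain other T cells through cytokines, through adenosine made at their surface from extracellular ATP, and through receptors that engage ligands on antigen-presenting cells. IL-10 and TGF-beta are single cytokines, whereas EBI3 is 1 of the 2 chains of IL-35. CD39 (Entpd1) and CD73 (Nt5e) act in sequence to make adenosine. Tregs of visceral adipose tissue are known as a distinct resident population, and Id2 is a helix-loop-helix protein that keeps E proteins from binding E-box DNA.

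The promoter windows of 3 members are shown because these members had the smallest p-values of the 10 in the 5 comparisons planned from the design, and because E proteins bind the E-box core CANNTG. Each window runs from 250 bases before to 50 bases after the annotated start, from RefSeq on GRCm38.p6, 5′ to 3′ on the strand of the gene. Capitals mark matches to CANNTG or to TGANTCA, the sequence that AP-1 factors bind, searched on both strands. The windows are chr5:21372423-21372722 on the plus strand for Fgl2, chr9:88327359-88327658 on the plus strand for Nt5e and chr16:43664135-43664434 on the minus strand for Tigit.
Fgl2: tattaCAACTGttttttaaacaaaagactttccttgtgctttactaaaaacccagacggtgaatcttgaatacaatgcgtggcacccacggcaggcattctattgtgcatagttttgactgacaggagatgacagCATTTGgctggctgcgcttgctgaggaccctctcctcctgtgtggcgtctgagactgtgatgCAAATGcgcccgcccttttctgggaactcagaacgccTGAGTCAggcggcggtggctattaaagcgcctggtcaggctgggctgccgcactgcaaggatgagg
Nt5e: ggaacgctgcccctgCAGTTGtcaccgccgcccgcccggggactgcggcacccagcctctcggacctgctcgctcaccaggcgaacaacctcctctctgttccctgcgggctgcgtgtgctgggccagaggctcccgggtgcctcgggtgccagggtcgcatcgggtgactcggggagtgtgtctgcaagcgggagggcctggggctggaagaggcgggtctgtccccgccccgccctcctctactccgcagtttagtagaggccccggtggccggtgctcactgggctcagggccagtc
Tigit: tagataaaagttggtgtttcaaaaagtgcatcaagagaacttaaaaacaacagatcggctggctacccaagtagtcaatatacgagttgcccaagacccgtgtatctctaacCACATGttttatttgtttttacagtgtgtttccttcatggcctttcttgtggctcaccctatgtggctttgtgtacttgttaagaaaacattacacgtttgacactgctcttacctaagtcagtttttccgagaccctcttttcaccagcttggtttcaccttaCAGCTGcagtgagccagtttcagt

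Counted from the annotated start, Fgl2 had CANNTG matches at -245, -115 and -53 and a TGANTCA match at -16. Nt5e had a single match, CAGTTG at -235, and Tigit had CACATG at -138 and CAGCTG at 27. The end of the Tigit window was found in no Tigit transcript of a second annotation, GENCODE, whereas those of Fgl2 and Nt5e were found. The Tigit positions thus rest on the RefSeq start alone. RefSeq windows were found for 7 members, 8 windows in all, since Entpd1 had 2; the windows of Ebi3 and Tgfb1 and the second of Entpd1 held neither motif. CANNTG occurred in 72.3% of all 32851 promoter windows of 300 bases, CAGNTG, a narrower form whose matches are also CANNTG matches, in 51.4%, and TGANTCA in 7.81%. These matches describe letters in the windows and not sites of binding.

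The libraries did not all carry the signs of the sorted cell type to the same degree. Id2 was lower in both KO libraries than in both WT libraries of each tissue, with 1499 and 1298 TPM in KO adipose, 2249 and 3679 TPM in WT adipose, 72.1 and 265 TPM in KO spleen and 274 and 346 TPM in WT spleen. The Treg lineage gene Foxp3 reached 8.27 TPM in KO spleen 2 and 7.40 TPM in KO adipose 2, against 93.5 to 266 TPM in the other 6 libraries. The 6 Treg genes together, Foxp3 among them, summed to 1714 and 895 TPM in KO adipose, 1652 and 1365 TPM in WT adipose, 1618 and 1806 TPM in KO spleen and 2183 and 2000.5 TPM in WT spleen, and the lowest sum was that of KO adipose 3. KO adipose 3 had the lowest summed level of 11 T cell core genes, 4370 TPM against 8587 to 12825 TPM in the other libraries. It also had the highest sums of 11 macrophage and monocyte genes (11182 TPM against 9.43 to 614 TPM) and of 5 adipocyte genes (13750 TPM against 1.03 to 2012 TPM). Fabp4 made up most of the adipocyte sum, with 13591 TPM in KO adipose 3 and 1991 TPM in WT adipose 3. In KO adipose 3, Adipoq was at 112 TPM, Cidec at 42.5 TPM, Lep at 2.74 TPM and Plin1 at 1.63 TPM. The 8 fibroblast and mesothelium genes summed to 730 and 3481 TPM in KO adipose and to at most 4.76 TPM in every other library. None of the 10 members passed an adjusted p of 0.05 with limma in any of the 5 comparisons planned from the design. At an unadjusted p under 0.05 there were 1 member in KO against WT adipose (6.97% of tested genes), 0 in KO against WT spleen (0.478%), 2 in KO adipose against KO spleen (12.9%), 3 in WT adipose against WT spleen (13%) and 0 in the interaction of genotype and tissue (3.06%).

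**Figure D1:**
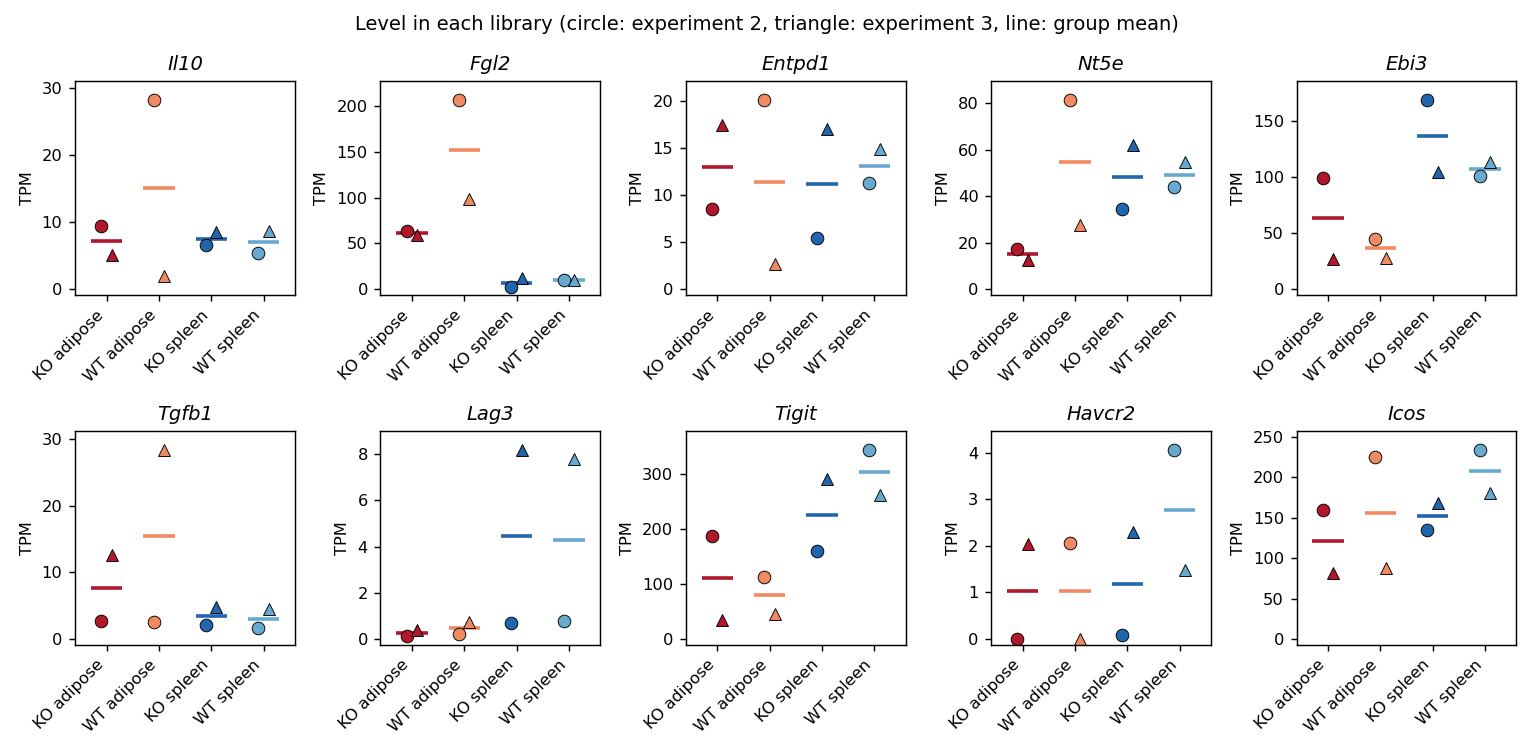
TPM of each of the 10 genes (vertical axes, a separate linear scale for each gene) in the 8 libraries, by group (horizontal axes). Circles are libraries of experiment 2, triangles libraries of experiment 3 and lines the means of the 2 libraries; Fgl2 lies at 58.9 TPM or more in the 4 adipose libraries and at 12.0 TPM or less in the 4 spleen libraries.

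In TPM, which allows levels of different genes to be compared, Icos and Tigit were among the 3 highest members in each group. Icos averaged 121 ± 54.4 TPM in KO adipose, 156 ± 96.9 TPM in WT adipose, 152 ± 23.8 TPM in KO spleen and 207 ± 37.6 TPM in WT spleen (SD, n = 2 each), and Tigit 110 ± 108, 79.2 ± 48.6, 226 ± 92.8 and 303 ± 58.2 TPM in the same groups (SD, n = 2 each). Lag3 and Havcr2 were the 2 lowest in both adipose groups, and Havcr2 was the lowest in both spleen groups. Fgl2 ranked 4 of the 10 in KO adipose and 2 of 10 in WT adipose, against 7 of 10 in KO spleen and 6 of 10 in WT spleen. Neighbours in the order often lay within their spread: Icos and Tigit in KO adipose, Ebi3 (63.2 ± 51.3 TPM) and Fgl2 (61.0 ± 2.98 TPM) in KO adipose, and Icos and Fgl2 (152 ± 76.4 TPM) in WT adipose did not differ beyond it.

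Fgl2, a fibrinogen-like protein that Tregs secrete and that acts through an Fc receptor of antigen-presenting cells, was the member with the largest difference between tissues. It had 63.1 and 58.9 TPM in KO adipose and 206 and 98.3 TPM in WT adipose, against 2.29 and 12.0 TPM in KO spleen and 10.3 and 10.2 TPM in WT spleen. All 4 adipose libraries were above all 4 spleen libraries.

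On the log2(TPM + 1) scale, Fgl2 in KO was 3.24 higher in adipose tissue than in spleen (SE 0.65, 95% interval 1.75 to 4.73, a 9.46-fold difference), and its adjusted p over all tested genes was 0.0701 with limma. In WT it was 3.67 higher (SE 0.65, interval 2.18 to 5.16, 12.7-fold), with an adjusted p of 0.0833 with limma. Neither passed the threshold, which 1.08% of tested genes passed in KO (144 genes, and 236 with the replicate number as a block) and 0.164% in WT (22 genes, and 78 with the block). The difference between the genotypes in this tissue effect was -0.43 (SE 0.92, interval -2.53 to 1.68). Over both genotypes, a comparison added after the values were seen, Fgl2 rose 3.46 in adipose tissue relative to spleen (SE 0.46, interval 2.40 to 4.51, 11.0-fold), with an adjusted p of 0.0102 with limma. In that comparison 3.06% of tested genes passed (409 genes, and 885 with the block), 2.33% with higher values in adipose tissue, and all 4 adipose libraries were above all 4 spleen libraries for 11.6% of tested genes and below them for 4.66%. That call was lost without WT spleen 2 (adjusted p 0.0732), without WT spleen 3 (0.0628), without both experiment 2 libraries of KO (0.0706) and without the filter on low values (0.0722), all with limma, and the difference stayed between 2.92 and 3.95 under all 17 alternatives.

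Macrophages also make Fgl2, so their markers stand beside it. The macrophage and monocyte sum was 15.8 and 11182 TPM in KO adipose, 9.43 and 21.0 TPM in WT adipose, 13.3 and 105 TPM in KO spleen and 614 and 156 TPM in WT spleen. Fgl2 was at 63.1 TPM where that sum was 15.8 TPM and at 58.9 TPM where it was 11182 TPM. Of the 11 markers, 4 and 0 were listed at 0 in KO adipose, 5 and 4 in WT adipose, 4 and 0 in KO spleen and 0 and 0 in WT spleen. In WT adipose, where Fgl2 was highest, C1qa was listed at 0 in both libraries, while Adgre1 was at 3.91 and 16.0 TPM, above the 0 to 2.56 TPM of the spleen libraries. The part of macrophages in the Fgl2 values was not tested. The gene lies across Ccdc146 on the other strand, with no overlap of exons, and Ccdc146 was at most 0.149 TPM in any library.

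Between genotypes, Fgl2 in adipose tissue was 1.21 lower in KO on the log2 scale (SE 0.65, interval -2.70 to 0.28), with both KO libraries under both WT libraries and an adjusted p of 0.748 with limma. With each library scaled to its T cell core sum the groups overlapped, at 50.7 and 137 scaled TPM in KO adipose and 192 and 116 scaled TPM in WT adipose. In spleen the KO value was 0.79 lower (SE 0.65, adjusted p 1 with limma), a difference that rested on KO spleen 2 at 2.29 TPM and turned to 0.21 higher without it.

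Il10, the cytokine that limits antigen presentation and inflammatory cytokine release, had 9.39 and 5.11 TPM in KO adipose and 28.2 and 2.02 TPM in WT adipose. In spleen it had 6.53 and 8.58 TPM in KO and 5.40 and 8.64 TPM in WT. The highest and the lowest of the 8 values were the 2 libraries of WT adipose, and every group overlapped every other. In each of the 4 comparisons between groups the Il10 difference was within 1 SE, and the interval for KO against WT in adipose tissue ran from -2.44 to 1.97 on the log2 scale.

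Ebi3 had 99.5 and 27.0 TPM in KO adipose and 45.1 and 27.7 TPM in WT adipose, against 169 and 105 TPM in KO spleen and 101 and 113 TPM in WT spleen. The 4 adipose libraries were all below the 4 spleen libraries, although KO adipose 2 came within 2 TPM of the lowest spleen value. Adipose tissue minus spleen was -1.34 in KO (SE 0.59, interval -2.69 to 0.02, adjusted p 0.394 with limma) and -1.57 in WT (SE 0.59, interval -2.92 to -0.21, adjusted p 0.331 with limma). Over both genotypes it was -1.45 (SE 0.42, adjusted p 0.104 with limma), and without KO adipose 2 it was -1.91. Over the 17 alternatives this difference ranged from -1.91 to -0.99. An antisense gene, Gm16712, overlaps exons of Ebi3 and was listed at 0.311 to 7.38 TPM; reads of the pair cannot be told apart without strand, and the sources used here do not say whether counting used it.

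Il12a, which encodes the other chain of IL-35, was listed at 0 in 7 of the 8 libraries and at 0.134 TPM in KO adipose 3. Il27, whose product pairs with EBI3 in IL-27, was listed at 0 in 6 libraries, at 0.149 TPM in KO adipose 3 and at 0.823 TPM in WT spleen 2. Neither gene was tested.

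Tgfb1, the latent cytokine that Tregs display and activate at their surface, had 2.71 and 12.5 TPM in KO adipose and 2.58 and 28.4 TPM in WT adipose, against 2.06 and 4.79 TPM in KO spleen and 1.64 and 4.49 TPM in WT spleen. The library of experiment 3 was the higher in each group, and the tissues overlapped only between libraries of different experiment numbers. Within each number, adipose tissue was above spleen in both genotypes. The adipose value in KO was 0.75 above spleen, within 1 SE. In WT it was 1.43 above (SE 1.06, adjusted p 0.588 with limma), which became -0.09 without WT adipose 3. These SEs come from the fit without a block, so they include the shift between experiments. With the replicate block the adjusted p with limma was 0.558 in KO and 0.266 in WT.

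Nt5e, the enzyme CD73 that converts AMP to adenosine, was the member that came nearest to a difference between genotypes. It had 17.2 and 12.8 TPM in KO adipose and 81.4 and 27.8 TPM in WT adipose, against 34.5 and 61.9 TPM in KO spleen and 43.9 and 54.7 TPM in WT spleen. The 2 KO adipose libraries were the lowest of the 8, and the other 3 groups overlapped one another.

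In adipose tissue the KO level of Nt5e was 1.62 below WT on the log2 scale (SE 0.54, interval -2.87 to -0.37, 0.325 of the WT level), with an unadjusted p of 0.0172 and an adjusted p of 0.538 with limma. That threshold was passed by 0.284% of tested genes. Leaving out WT adipose 2 moved the difference to -0.86 and leaving out WT adipose 3 to -2.38. In spleen the KO difference was -0.08 (interval -1.33 to 1.17), and the test of the difference between tissues gave -1.54 (SE 0.77, interval -3.31 to 0.23, adjusted p 1 with limma), where 0.0299% of tested genes passed. Set against KO spleen, KO adipose was 1.57 lower (SE 0.54, interval -2.82 to -0.32, adjusted p 0.282 with limma), whereas WT adipose and WT spleen differed by -0.04 (interval -1.29 to 1.21).

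Markers of other cell types moved with the genotype in adipose tissue. The fibroblast and mesothelium sum given above was higher in both KO libraries, and the 6 erythroid genes in the table summed to 34706 and 65674 TPM in KO adipose, against 38.4 and 3798 TPM in WT adipose. The erythroid sum was not particular to KO adipose. It was 1186 and 107786 TPM in KO spleen and 15716 and 46707 TPM in WT spleen, and KO spleen 3 had the highest sum. The part of these other cell types in the Nt5e difference was not tested. With each library scaled to its T cell core sum, Nt5e was at 13.8 and 29.7 scaled TPM in KO adipose and at 75.9 and 32.8 in WT adipose, so that the groups still did not overlap, and the difference was -1.26 on the log2 scale.

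Entpd1, the enzyme CD39 that breaks ATP down to AMP, had 8.51 and 17.5 TPM in KO adipose, 20.1 and 2.63 TPM in WT adipose, 5.39 and 17.0 TPM in KO spleen and 11.3 and 14.9 TPM in WT spleen. Its groups all overlapped and each of its 4 differences was within 1 SE. The ratio of Entpd1 to Nt5e was 0.494 and 1.36 in KO adipose, against 0.247 and 0.0946 in WT adipose, 0.156 and 0.275 in KO spleen and 0.257 and 0.272 in WT spleen. KO adipose was thus the group with the highest ratio in both of its libraries, a description chosen after the values were seen.

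Tigit, a receptor that competes with CD226 for the ligand CD155, had 187 and 34.0 TPM in KO adipose and 114 and 44.8 TPM in WT adipose, against 160.03 and 291 TPM in KO spleen and 345 and 262 TPM in WT spleen. KO adipose 2 lay above KO spleen 2, so the KO groups overlapped, and WT adipose lay below WT spleen in both libraries. The adipose minus spleen difference was -1.42 in KO (SE 0.77, interval -3.19 to 0.35, adjusted p 0.502 with limma) and -2.06 in WT (SE 0.77, interval -3.82 to -0.29, adjusted p 0.329 with limma). Over both genotypes it was -1.74 (SE 0.54, adjusted p 0.120 with limma), and without KO adipose 2 it was -2.35. Over the 17 alternatives this difference ranged from -2.56 to -1.13. KO against WT gave 0.16 in adipose tissue (interval -1.60 to 1.93) and -0.48 in spleen (interval -2.24 to 1.29).

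Cd226, which gives an activating signal from the same ligand, had 107 and 44.7 TPM in KO adipose and 138 and 139.6 TPM in WT adipose, against 65.4 and 43.6 TPM in KO spleen and 55.8 and 35.7 TPM in WT spleen. WT adipose had the 2 highest of the 8 values. The ratio of Tigit to Cd226 was 1.74 and 0.760 in KO adipose and 0.822 and 0.321 in WT adipose, against 2.45 and 6.68 in KO spleen and 6.17 and 7.35 in WT spleen. The 4 adipose ratios were below the 4 spleen ratios. This ratio was chosen after the values were seen and was not tested, and the share of gene pairs that part the tissues is not known. Of the other ratios taken, Ebi3 to Il27ra overlapped between tissues, at 0.130 to 1.16 in adipose tissue and 0.859 to 5.64 in spleen. Entpd1 to Nt5e overlapped as well, whereas Tigit to Ctla4 did not (0.285 to 0.700 and 0.764 to 1.26). Pvr, which encodes CD155, was at 5.84 to 12.3 TPM in all 8 libraries.

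**Figure D2:**
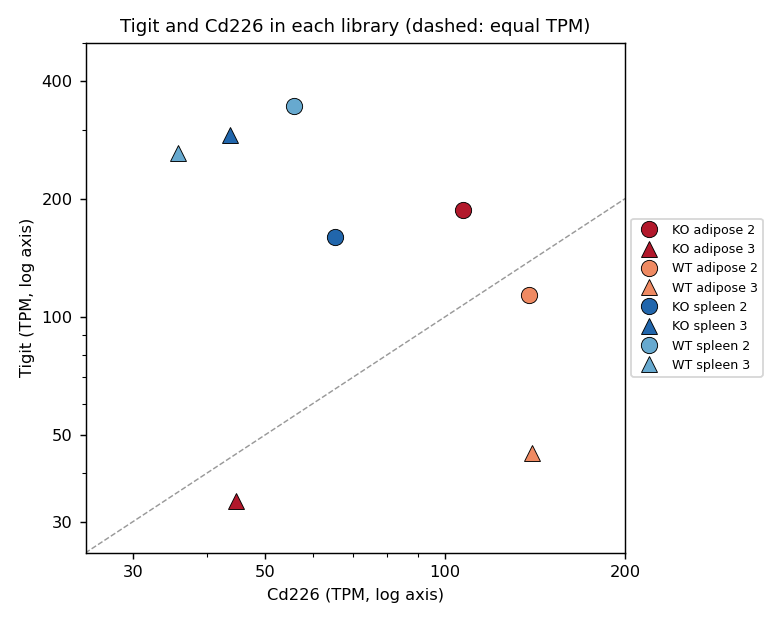
Tigit against Cd226 in each of the 8 libraries, in TPM on log axes, with a dashed line where the levels are equal; circles are experiment 2 and triangles experiment 3. The 4 adipose libraries have ratios of 0.321 to 1.74, 1 above the line and 3 below it, and the 4 spleen libraries lie above the line with ratios of 2.45 to 7.35.

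Icos, a costimulatory receptor that supports Treg survival, had 159 and 82.1 TPM in KO adipose, 224 and 87.4 TPM in WT adipose, 135 and 169 TPM in KO spleen and 234 and 181 TPM in WT spleen. KO spleen was below WT spleen in both libraries, a difference of -0.45 that was within 1 SE. The adipose groups overlapped, and WT adipose differed from WT spleen by -0.55 (SE 0.50, adjusted p 0.659 with limma), which became 0.12 without WT adipose 3. Set against Cd28, a related costimulatory receptor, the ratio of Icos was 0.431 to 1.17 in the 4 adipose libraries and 1.28 to 1.63 in the 4 spleen libraries, likewise chosen after the values were seen and not tested.

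Lag3, a receptor for MHC class II, was low throughout. It had 0.114 and 0.397 TPM in KO adipose and 0.220 and 0.737 TPM in WT adipose, against 0.706 and 8.19 TPM in KO spleen and 0.797 and 7.80 TPM in WT spleen. In each genotype both adipose libraries were below both spleen libraries, but the spleen libraries of experiment 2 were close to the adipose level. Lag3 reached 1 TPM only in KO spleen 3 and WT spleen 3, so it met the minimum for testing through these libraries alone. Its lower adipose values and higher experiment 3 values are partly set by that minimum and are no separate support. Adipose tissue was below spleen by a log2 difference of -1.67 in KO (SE 0.97, adjusted p 0.529 with limma) and of -1.45 in WT (SE 0.97, adjusted p 0.552 with limma), on a scale that understates differences of low genes.

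Havcr2, which encodes TIM-3, was listed at 0 in KO adipose 2 and WT adipose 3. It had 2.04 TPM in KO adipose 3 and 2.07 TPM in WT adipose 2, against 0.0746 and 2.30 TPM in KO spleen and 4.06 and 1.47 TPM in WT spleen. All groups overlapped. KO against WT gave -0.91 in spleen (SE 0.88, adjusted p 1 with limma) and -0.01 in adipose tissue (interval -2.02 to 2.01).

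**Figure D3:**
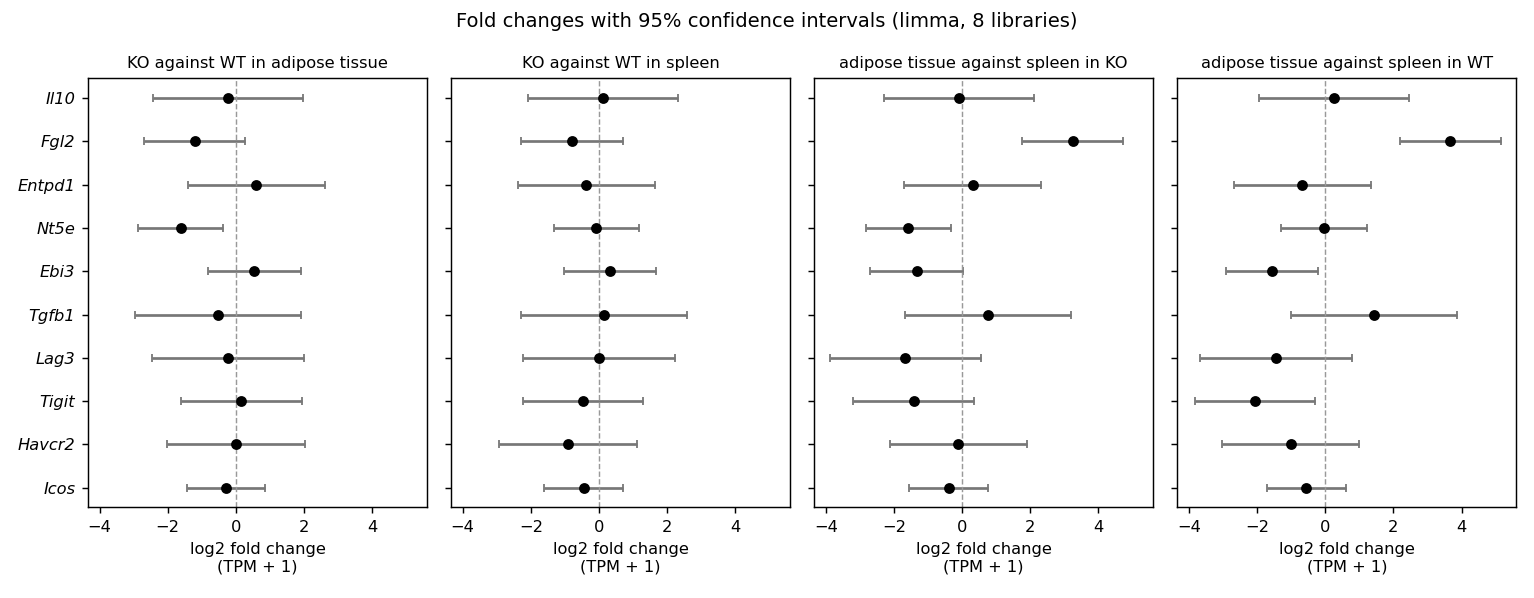
Difference of each gene on the log2(TPM + 1) scale (horizontal axes) in 4 comparisons from 1 limma fit over 8 libraries. Points are estimates and bars 95% intervals; Fgl2 lies at 3.24 in KO and 3.67 in WT for adipose tissue against spleen, and for KO against WT in adipose tissue only the interval of Nt5e leaves out 0.

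Across the 10 genes, KO against WT in adipose tissue gave 3 positive and 7 negative differences with a median of -0.23, beside a median of -0.27 over all tested genes. Both KO libraries were under both WT libraries for 2 members, Fgl2 and Nt5e, where 27.5% of tested genes showed this; after T cell core scaling Nt5e still did and Fgl2 did not. They were above them for 0 members, where 7.66% did. In spleen the median was -0.23 beside -0.12 over all tested genes; Icos alone was lower without overlap, where 13.9% of tested genes were, and none was higher, where 5.93% were. No tested gene passed in spleen (0%), and 64 of 13376 (0.478%) had an unadjusted p under 0.05 with limma, none of them a member.

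For adipose tissue against spleen the members' median was below that of all genes, at -0.25 beside 0.16 in KO and -0.61 beside 0.32 in WT. In KO, 1 member, Fgl2, was higher without overlap (22.1% of tested genes) and 3 were lower, Nt5e, Ebi3 and Lag3 (14.6%). In WT, Fgl2 was higher (37.8%) and 3 were lower, Tigit, Ebi3 and Lag3 (15.1%). Lag3 was tested only because of its spleen libraries of experiment 3, so its place in both counts is partly set by the filter. The tissue comparisons use the same 8 libraries as the genotype comparisons, so the counts of the 4 comparisons are not independent.

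Over both tissues, KO against WT gave no member under an adjusted p of 0.05 with limma, and no tested gene passed (0%); 503 of 13376 genes (3.76%) and none of the members had an unadjusted p under 0.05. The largest sizes among the members were -0.999 for Fgl2 (SE 0.46, interval -2.05 to 0.05) and -0.85 for Nt5e (SE 0.39, interval -1.73 to 0.03). 

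The libraries of a group also differed by experiment number. Tgfb1 was higher in experiment 3 than in experiment 2 in all 4 groups, by 4.62-fold in KO adipose, 11.0-fold in WT adipose, 2.32-fold in KO spleen and 2.73-fold in WT spleen. Lag3 was higher in experiment 3 by 3.48-fold in KO adipose, 3.34-fold in WT adipose, 11.6-fold in KO spleen and 9.79-fold in WT spleen. It met the minimum for testing only through its spleen libraries of experiment 3, so this direction is partly set by the filter. No member was lower in experiment 3 in all 4 groups. Among all tested genes 24.2% were higher in experiment 3 in every group and 6.54% lower.

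In a comparison added after the values were seen, experiment 3 minus experiment 2 within groups was 1.72 for Tgfb1 (SE 0.43, interval 0.70 to 2.74, adjusted p 0.189 with limma) and 1.39 for Lag3 (SE 0.48, interval 0.25 to 2.53, adjusted p 0.228 with limma), where 0.00748% of tested genes passed. Ebi3 gave -0.76 (SE 0.33) and Tigit -0.82 (SE 0.50). Experiment 3 libraries had more genes above 0 in every group, with 20684 against 13184 in KO adipose, 15715 against 14717 in WT adipose, 16773 against 14946 in KO spleen and 16822 against 15575 in WT spleen. Nkg7, a gene of NK and cytotoxic T cells, was higher in experiment 2 in 3 of the 4 groups. Other markers of NK and CD8 T cells were mixed. Cd8a was higher in experiment 2 in all 4 groups, and Cd8b1 and Eomes in 3 of them. Klrb1c was instead higher in experiment 3 in 3 groups, and Ncr1 was listed at 0 in every experiment 2 library. The part of these markers, or of the number of genes above 0, in the experiment differences was not tested.

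**Figure D4:**
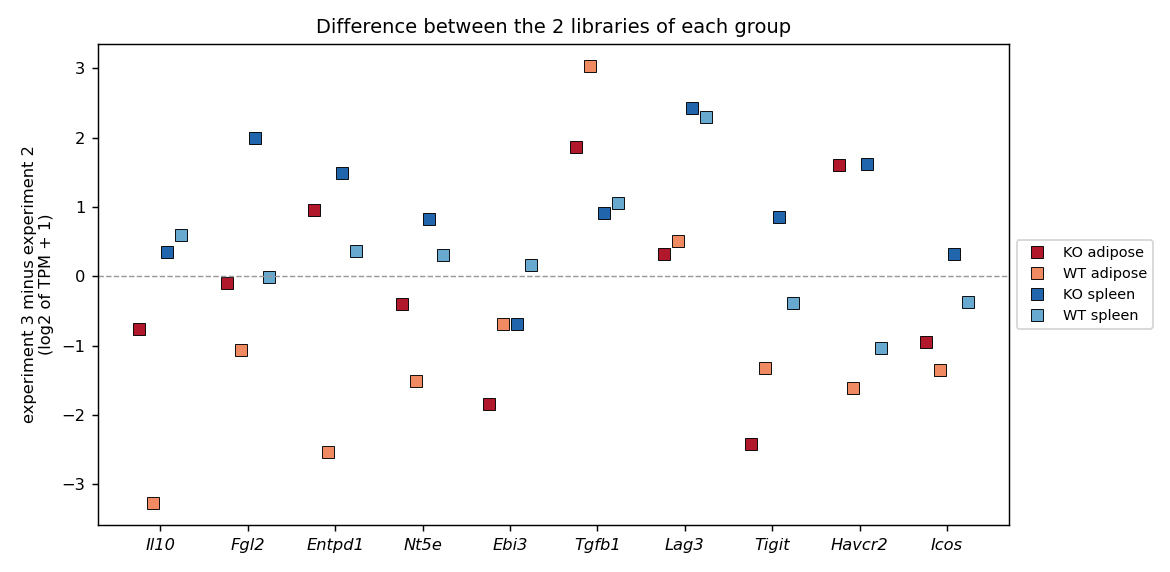
Experiment 3 minus experiment 2 on the log2(TPM + 1) scale (vertical axis) for each of the 10 genes (horizontal axis), with 1 square for each group. Tgfb1 and Lag3 are above 0 in all 4 groups, and the other genes have groups on both sides of 0.

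Ligands, receptors and processing enzymes of the members were taken from a list of 26 genes, of which 22 were tested. None passed in KO against WT in either tissue, where 18 of 22 were negative in adipose tissue (median -0.54, beside -0.27 over all tested genes) and 20 of 22 in spleen (median -0.26, beside -0.12), and none had an unadjusted p under 0.05 in either. In adipose tissue against spleen, 1 passed in KO, Lgals3, and 0 in WT, beside 1.08% and 0.164% of tested genes. An unadjusted p under 0.05 with limma was reached by 4 of 22 in each, beside 12.9% of tested genes in KO and 13% in WT. Lgals3 encodes galectin-3, a ligand of LAG-3, and had 149 and 208 TPM in KO adipose and 269.6 and 205 TPM in WT adipose, against 7.68 and 22.0 TPM in KO spleen and 36.8 and 15.5 TPM in WT spleen. It rose 3.64 in KO adipose relative to KO spleen (SE 0.56, adjusted p 0.0319 with limma) and stood 3.24 higher in WT (SE 0.56, adjusted p 0.0809 with limma). The call in KO held under 7 of 19 alternatives, with adjusted p-values of 0.0304 to 0.235.

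Over both genotypes, 1 of the 22 tested partners rose and 1 fell in adipose tissue, where 3.06% of tested genes passed, 2.33% with higher values. Lgals3 was 3.44 higher (SE 0.40, adjusted p 0.00682 with limma), a call kept in 15 of 17 alternatives and lost without the filter on low values and without both KO libraries of experiment 2. Itgb8, the integrin chain that releases active TGF-beta, had 0.0109 and 1.18 TPM in KO adipose and 0.654 and 0.485 TPM in WT adipose, against 3.47 and 5.08 TPM in KO spleen and 5.05 and 6.08 TPM in WT spleen. Its difference was -1.94 (SE 0.41, adjusted p 0.0489 with limma), a call kept in 5 of 17 alternatives. Lrrc32, the anchor of latent TGF-beta known as GARP, gave -2.18 (SE 0.69, adjusted p 0.123 with limma).

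Other partners gave levels without a called difference. The receptor chain Il10ra had 28.5 and 35.3 TPM in KO adipose and 72.0 and 47.2 TPM in WT adipose, against 5.18 and 30.7 TPM in KO spleen and 15.7 and 32.5 TPM in WT spleen. Lgals9, the galectin-9 ligand of TIM-3, was at 260 to 451 TPM in all 8 libraries. Icosl, the ligand of ICOS, was at 6.09 and 17.7 TPM in KO adipose and at 5.54 and 69.8 TPM in WT adipose, against 0.282 and 3.18 TPM in KO spleen and 0.851 and 2.49 TPM in WT spleen. Over both genotypes it was 2.70 higher in adipose tissue (SE 0.81), with an adjusted p of 0.110 with limma and of 0.0272 with the replicate block. Fcgr2b, the Fc receptor that binds FGL2, was at 113 TPM in KO adipose 3 and at most 2.87 TPM elsewhere. Fgl1, a ligand of LAG-3, was at most 0.123 TPM.

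A second list held 21 other suppressive and checkpoint genes, all tested. None passed in KO against WT in either tissue or in WT adipose against WT spleen with limma, with 3, 0 and 6 of 21 under an unadjusted p of 0.05, beside 6.97%, 0.478% and 13% of tested genes. In KO, 1 rose and 1 fell in adipose tissue relative to spleen, where 1.08% of tested genes passed. Lgals1, which encodes galectin-1, had 3602 and 3269 TPM in KO adipose and 3295 and 3527 TPM in WT adipose, against 743 and 992 TPM in KO spleen and 1051 and 1074 TPM in WT spleen. It rose 2.00 in KO (SE 0.32, adjusted p 0.0357 with limma) and was 1.68 higher in WT (adjusted p 0.106 with limma). Cd160, a receptor for HVEM, had 0 and 1.07 TPM in KO adipose and 5.78 and 1.94 TPM in WT adipose, against 35.6 and 15.2 TPM in KO spleen and 16.2 and 22.8 TPM in WT spleen. It fell by 4.08 in KO adipose relative to KO spleen (SE 0.69, adjusted p 0.0387 with limma). Each of these calls in KO was kept in 5 of 19 alternatives.

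Over both genotypes, 2 of the 21 genes of that list rose in adipose tissue and 2 fell. Among all tested genes 3.06% passed, 2.33% with higher values in adipose tissue. Lgals1 was 1.84 higher (SE 0.23, adjusted p 0.00850 with limma), a call kept in 12 of 17 alternatives. Areg, the growth factor amphiregulin, was 3.78 higher (SE 0.69, adjusted p 0.0330 with limma), with 33.9 and 37.8 TPM in KO adipose and 54.1 and 251 TPM in WT adipose, against 3.95 and 2.52 TPM in KO spleen and 1.03 and 13.9 TPM in WT spleen. Il1r2, the decoy receptor for IL-1, was 4.59 lower (log2 difference -4.59, SE 0.91, adjusted p 0.0405 with limma) and Cd160 3.13 lower (log2 difference -3.13, SE 0.48, adjusted p 0.0191 with limma). The calls were kept in 9, 8 and 10 of 17 alternatives for Areg, Il1r2 and Cd160. Cd200r1, the receptor for CD200, was 1.64 higher (SE 0.37), with an adjusted p of 0.0574 with limma and of 0.0438 with the replicate block.

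Cd200, a ligand that restrains myeloid cells, had the smallest p of the list in KO against WT in adipose tissue. It had 55.5 and 178 TPM in KO adipose, against 13.7 and 18.3 TPM in WT adipose, a difference of 2.58 (SE 0.54, adjusted p 0.159 with limma). Without KO adipose 2, it was 3.41, from KO adipose 3 alone, the library with the high fibroblast and macrophage sums. Over the 19 alternatives the difference ranged from 1.75 to 3.41. KO adipose 2 had a macrophage and monocyte sum of 15.8 TPM and a fibroblast and mesothelium sum of 730 TPM. In spleen, Cd200 had 108 and 70.7 TPM in KO and 66.8 and 65.7 TPM in WT. The part of fibroblasts and macrophages in the Cd200 values was not tested.

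The genes whose profiles over the 8 libraries were most like those of the 3 members with the smallest p in the 5 planned comparisons were found by the root mean squared difference between centred log2(TPM + 1) profiles, over 11305 genes. For Fgl2 they were Klf6 (0.455), Gp49a (0.459) and Id2 (0.484). Each was higher in the adipose than in the spleen libraries, which follows from choosing them for a profile like that of Fgl2 and is no separate result. Within WT adipose the order differed, with Fgl2 at 206 and 98.3 TPM and Id2 at 2249 and 3679 TPM. Klf6 encodes a zinc-finger transcription factor, and had 410 and 366 TPM in KO adipose and 570.2 and 665 TPM in WT adipose, against 26.0 and 59.6 TPM in KO spleen and 77.7 and 57.6 TPM in WT spleen. Gp49a has a near-identical neighbouring gene, so its value is uncertain.

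For Nt5e the nearest genes were Rfc5 (0.300), Ttk (0.303) and Ccne1 (0.314), a replication factor subunit, a mitotic kinase and a cyclin. Ccne1 had 4.91 and 2.43 TPM in KO adipose and 28.1 and 6.39 TPM in WT adipose, against 8.74 and 17.2 TPM in KO spleen and 6.53 and 11.3 TPM in WT spleen. KO adipose was lowest, which follows from choosing Ccne1 for a profile like that of Nt5e and is no separate result. For Tigit they were Igsf23 (0.262), Cd27 (0.285) and Pglyrp1 (0.359). Cd27, a costimulatory receptor of the TNF receptor family, had 292 and 77.2 TPM in KO adipose and 184 and 79.6 TPM in WT adipose, against 288 and 340.4 TPM in KO spleen and 439 and 352 TPM in WT spleen. Among the 45 pairs of members, Entpd1 and Havcr2 (0.566), Nt5e and Icos (0.574) and Ebi3 and Tigit (0.576) were nearest to each other.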

How the data were processed

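RNA of sorted CD4+ CD25+ T cells was copied and amplified with the SMARTer v4 ultra-low-input kit and made into libraries with Nextera XT, per the labels' protocols. The authors deposited 1 table of TPM values for 8 libraries, a unit identified from the values, since each column sums to 1000000. The build was mm9 per the submitters' processing notes; the sources used here name no aligner, counter or annotation. The depth is unknown, because TPM does not keep it, and counting intervals are therefore left out. Amplification from few cells adds spread at low levels.

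Values were tested as log2(TPM + 1) by limma 3.58.1 (R 4.3.3) with a variance trend. Genes reaching 1 TPM in 2 or more libraries (13376) entered 1 fit of 4 groups with 4 residual degrees of freedom, with Benjamini-Hochberg adjustment over all of them and a threshold of 0.05. Intervals are 95%, and "within 1 SE" means a difference smaller than its standard error. The groups share 1 estimate of the spread, although over genes the log2 difference within a group had an SD of 1.49 in KO adipose, 1.07 in WT adipose, 0.838 in KO spleen and 0.696 in WT spleen. No label says that a group's libraries are separate mice: p-values then measure only the spread between these samples, which may be technical. In bulk samples fewer cells of a type and less RNA per cell cannot be told apart. The genes and lists were chosen with earlier results of these data known. Named from the lists were the genes past the threshold in a comparison and up to 3 with the smallest p in each; partners described as levels were named by role.

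The libraries numbered 3 minus those numbered 2 correlated between groups with r of 0.128 to 0.382 over the 6 pairs of groups, and the table's header calls the numbers experiments, so they were taken to pair the samples; the main fit had no block, and a block was an alternative. Other alternatives were pseudocounts of 0.1 and 5, no filter, a minimum of 5 TPM, quantile normalization, scaling to the T cell core genes, no trend, a fit of only the libraries compared, and leaving out each library in turn. Nectin2 and Vsir were matched through RefSeq synonyms.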

Additional observations from a re-analysis of the deposited data

How the results depend on the processing

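With 2 libraries a group, no read depth and RNA amplified from few cells, differences of under about 1 SE could not be signed: of 46 member differences within 1 SE, 42 changed sign under some alternative. Of 34 past 1 SE, 6 did, in 9 of 600 values. Members called in adipose tissue against spleen numbered 0 in KO, and 1 with quantile normalization (Fgl2, adjusted p 0.0484 with limma). That setting also took the calls over all genes from 144 to 231. In WT there were 0, and 1 in a fit of only the 4 libraries compared with the filter reapplied (Fgl2, adjusted p 0.0172 with limma, a setting added after the data were seen). Calls over all genes there went from 22 of 13376 to 217 of 12046. Over both genotypes there was 1, with 0 under no filter, 0 without both KO libraries of experiment 2, and 0 to 3 over the fits that leave out 1 library. The 3 were Fgl2, Ebi3 and Tigit without KO adipose 2; 0 remained without WT spleen 2 or WT spleen 3. In the other comparisons no alternative gave a called member. Sign changes under leaving out 1 library were Fgl2 in KO against WT spleen (-1.78 to 0.21, and 0.21 without both KO libraries of experiment 2), Tgfb1 (-0.090 to 2.95) and Icos (-1.23 to 0.12) in WT adipose against WT spleen, Ebi3 in KO against WT over both tissues (-0.033 to 0.89, and -0.20 without both KO libraries of experiment 2) and Il10 between experiments (-1.23 to 0.058). Icos between experiments (-0.59) became 0.037 when scaled to the T cell core genes. The cause of these changes was not tested beyond the library left out. The replicate block changed no member's call (Fgl2 over both genotypes had an adjusted p of 0.0152 with limma), while over all genes it moved the calls for adipose tissue against spleen from 144 to 236 in KO and from 22 to 78 in WT, and in the interaction from 4 to 0. Quantile normalization moved the median of all genes in adipose tissue against spleen from 0.16 to -0.11 in KO and from 0.32 to -0.0033 in WT.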
